A study of Rattus norvegicus with 6 samples.

Results

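Tmem176a and Tmem176b are neighbouring genes of the rat genome, and both were higher in INS-1 lines that lack the Prader-Willi syndrome (PWS) imprinted domain than in control lines. The pair was chosen by name because of the measured values of this contrast, so its difference between the groups is given as a description with no test. Both genes, 2 of the 32900 features in the count table, had reads in every line and passed the filter of a mean of at least 5 normalized counts, which left 15579 genes.

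The proteins encoded by Tmem176a and Tmem176b are related membrane proteins that resemble the MS4A family, and they are best known from dendritic cells and from some lymphocytes. They reside in the Golgi and in endosomes and lysosomes, where they have been described as cation channels. Work in dendritic cells has linked them to the handling of antigen for MHC class II and to the restraint of the NLRP3 inflammasome. In the genome the genes stand head to head, on opposite strands with their starts close together, an arrangement in which the genes can share regulatory sequence.

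INS-1 is a rat insulinoma line used as a model of the pancreatic β-cell, and the subline here, INS-1(832/13)::mCherry, carries a human insulin transgene and a fluorescent insulin biosensor. The control lines 5-9, 2 and 16 carry a CRISPR/Cas9 deletion of the PWS domain on the silent maternal allele, and the PWS lines 3, 19-1 and 19-4 carry deletions on both alleles. Control lines 2 and 16 and all PWS lines were derived from line 5-9, and lines 19-1 and 19-4 are subclones of line 19, so that the PWS lines stand for 2 clones. Total RNA from cells grown untreated in 7.5 mM glucose was sequenced after rRNA depletion, with 1 library per line, so every spread below is that between lines and their cultures.

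The counts of a line summed to between 26016478 and 36084261 under nonunique all counting, in which a read counts for each feature it fits, and to between 17530149 and 23022637 under nonunique none counting, which discards such reads. The deletion was visible in the libraries, since Snurf had 3442 to 4205 reads in the control lines and 0 to 4 in the PWS lines. Of the 17 β-cell markers listed, 16 were in the table and all of these were tested. Of these markers 12 were lower and 4 higher on average in PWS lines, and limma, edgeR and DESeq2 called 0, with 3 lower at an unadjusted limma p-value under 0.05, 18.8% of the 16 beside 11.3% of all tested genes. Their summed level was 552800 to 641200 normalized counts in the control lines and 310900 to 532900 in the PWS lines. Ins1, an insulin gene, had 256100 to 282800 in control and 133500 to 247300 in PWS lines, with no overlap (log2 difference -0.57, limma adjusted p = 0.389, DESeq2 adjusted p = 0.115). The groups did not overlap for Iapp, the amylin gene, either (-0.64, limma adjusted p = 0.364, DESeq2 adjusted p = 0.0651). In all, 12.5% of the 16 did not overlap beside 17.4% of all tested genes. The paper reported both Ins1 and Iapp as lower in PWS lines by droplet digital PCR of RNA. Without PWS line 19-4 the log2 differences of Ins1 and Iapp were -0.36 and -0.39.

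Tmem176a and Tmem176b are well known from leukocytes, whose defining markers were at or near 0. Ptprc, the pan-leukocyte antigen, and Aif1, Cd14 and Itgax had no read in any line, and the 4 T-cell markers had at most 3 reads in every line. The summed level of the 10 macrophage and dendritic cell markers in the table was 157 to 188 normalized counts in the control lines and 110 to 212 in the PWS lines, most of it from Batf3, a transcription factor, and Cd68, a lysosomal protein. Of the 5 fibroblast markers in the table, Pdgfra and Thy1 were tested, and for both the PWS lines lay below the control lines (log2 differences -0.73 and -0.28, limma adjusted p = 0.483 and 0.431), with line 19-4 the lowest. Without line 19-4 the log2 differences were -0.27 and -0.14. Groups that did not overlap in either direction were found for 17.4% of all tested genes, and 2 markers are too few for a share. Thy1 but not Pdgfra had an unadjusted limma p-value under 0.05, as did 11.3% of all tested genes. The collagen gene Col1a1 had at most 3 reads in every line and Dcn, the decorin gene, none, and the summed level of the 5 was 2646 to 2738 normalized counts in control and 1779 to 2558 in PWS lines. Gcg, the glucagon gene, had 110 reads in line 19-4 and 0 to 20 in the other lines. The summed level of the 4 alpha-cell markers was 185 to 217 normalized counts in control and 181 to 294 in PWS lines. The markers of endothelium, delta and PP cells, and acinar and duct cells summed to at most 28.5, 13.6 and 26.3 normalized counts in any line. The part of these markers in the values of the pair was not tested. In bulk RNA, fewer cells with a transcript and less transcript per cell cannot be told apart.

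The sequences around the starts are shown because both genes could share them. They are the RefSeq windows of assembly GRCr8, each running from 250 bases before the start to 50 bases after it, written 5′ to 3′ on the gene's own strand in lower case. Capitals mark AGGTCA, a core half-site of several nuclear receptors, which was the only match among 8 motifs searched. Tmem176a lies on the plus strand (chr4:79105569-79105868) and Tmem176b on the minus strand (chr4:79105214-79105513).
Tmem176a: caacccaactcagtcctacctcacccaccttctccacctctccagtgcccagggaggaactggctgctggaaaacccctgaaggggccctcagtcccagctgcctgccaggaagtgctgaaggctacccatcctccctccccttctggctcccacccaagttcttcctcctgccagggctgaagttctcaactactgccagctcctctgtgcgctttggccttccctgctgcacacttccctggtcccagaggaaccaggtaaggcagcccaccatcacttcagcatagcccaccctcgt
Tmem176b: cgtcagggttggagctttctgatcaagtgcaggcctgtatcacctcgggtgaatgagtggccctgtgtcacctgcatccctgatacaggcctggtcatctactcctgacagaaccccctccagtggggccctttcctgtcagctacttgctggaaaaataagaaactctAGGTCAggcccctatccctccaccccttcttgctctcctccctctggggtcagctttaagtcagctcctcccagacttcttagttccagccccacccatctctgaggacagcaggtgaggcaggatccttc
The starts were 556 bases apart, and 55 bases lay between the windows.

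Each window held 2 CpG dinucleotides, where the median of 21851 promoter windows was 11 and 18.6% of windows held at most 2. The GC content was 60.7% for Tmem176a and 56.0% for Tmem176b, beside a median of 55.0%. On either strand, neither window held a TATA box (TATAAA, in 13.0% of all windows), a CCAAT box (CCAAT, 38.0%), a GC box (GGGCGG, 41.8%), an E-box (CACGTG, 7.02%), an ETS motif (CCGGAA, 17.7%), a CRE (TGACGTCA, 2.1%) or an AP-1 site (TGANTCA, 6.53%). None of these motifs is contained in another. The half-site AGGTCA, present in 14.2% of all windows, occurred once in the Tmem176b window, with its first base at position -81 from the start. A match describes the letters of the window and is not evidence of binding.

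Tmem176a (ENSRNOG00000023708) had 277 normalized counts in control line 5-9, 181 in line 2 and 226 in line 16, against 488 in PWS line 3, 466 in line 19-1 and 381 in line 19-4. A normalized count is the number of reads divided by the size factor of the library, and 197 to 478 reads stood behind each of these values. All PWS lines lay above all control lines, and the gap of 104 between the lowest PWS line and the highest control line was about as wide as the range of 96.4 within the control lines. The means were 228 ± 48.2 (SD, n = 3) in control and 445 ± 56.6 (SD, n = 3) in PWS lines, a ratio of 1.95 and a difference of 0.98 (standard error 0.17) on the scale of log2(normalized count + 1).

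Tmem176b (ENSRNOG00000008465) had 222 normalized counts in control line 5-9, 205 in line 2 and 217 in line 16, against 410 in PWS line 3, 470 in line 19-1 and 397 in line 19-4. The control lines lay close together here, within a range of 17.5, and the gap to the lowest PWS line was 175. The means were 215 ± 8.94 (SD, n = 3) in control and 426 ± 38.7 (SD, n = 3) in PWS lines, a ratio of 1.99 and a log2 difference of 0.98 (standard error 0.11). Groups that did not overlap with the PWS lines higher were found for 8.43% of the 15579 genes, and groups that did not overlap in either direction for 17.4%. Because the pair was picked from this contrast, nothing is read from its place among them.

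**Figure D1:**
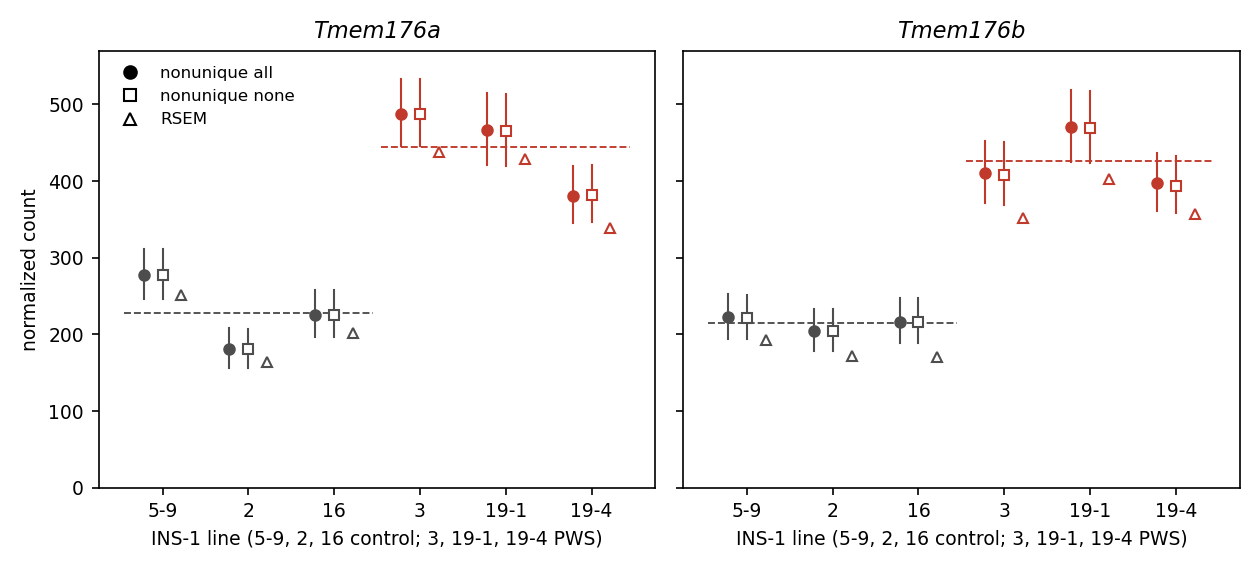
Normalized counts of Tmem176a (left) and Tmem176b (right) in each control line (grey) and PWS line (red) under 3 ways of counting reads. Vertical lines are 95% Poisson intervals of the reads, which cover counting error only and cannot be had for RSEM values, and dashed lines are the group means under nonunique all counting. Every PWS line lies above every control line for both genes, and the control lines are more spread for Tmem176a (181 to 277) than for Tmem176b (205 to 222).

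The difference between any one PWS line and any one control line was positive in all 9 pairings for both genes. It ran from 0.46 to 1.43 on the log2 scale for Tmem176a and from 0.84 to 1.20 for Tmem176b. The smallest value for Tmem176a was that between PWS line 19-4 and control line 5-9, the parental line.

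The genes differed in how much the lines of a group varied. The coefficient of variation of Tmem176a was 21.2% over control lines and 12.7% over PWS lines, where counting error alone gives 6.57% and 4.84%. That of Tmem176b was 4.17% and 9.09%, beside 6.71% and 4.94% from counting error. Of the 2567 tested genes with a mean between 200 and 500 normalized counts, 83.5% had a smaller pooled log2 SD within groups than Tmem176a, whose SD was 0.26, and 22.6% had a smaller one than Tmem176b, whose SD was 0.10. The median of these genes was 0.15.

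The proportion of the transcripts is given per line as a description, since the genes were picked for a shared change and a like proportion in both groups follows from that choice. Normalized counts of Tmem176a divided by those of Tmem176b gave 1.25, 0.883 and 1.04 in the control lines, in the order 5-9, 2 and 16, and 1.19, 0.992 and 0.959 in PWS lines 3, 19-1 and 19-4. The means were 1.06 ± 0.183 (SD, n = 3) and 1.05 ± 0.124 (SD, n = 3). Lines 19-1 and 19-4 lay close together, and the counting error of the ratio was not computed. A level of one gene cannot be set against the other from these values, because transcript length enters them, but the comparison of the ratio between lines is free of length. Over the 6 lines the log2 values of the genes had a Pearson correlation of 0.946 and a Spearman correlation of 0.943, which mostly reflect the step between the groups. With each group mean removed, the correlation of the deviations was 0.597 over the same 6 lines.

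Reads of the pair were almost all unique. Under nonunique none counting, which discards a read that fits several places or features, Tmem176a kept 1996 of 1996 reads and Tmem176b 1892 of 1900. The 8 reads lost by Tmem176b came from lines 5-9, 3 and 19-4. RSEM, which apportions reads among transcripts, gave 206 ± 43.7 (SD, n = 3) in control and 402 ± 54.7 (SD, n = 3) in PWS lines for Tmem176a, a log2 difference of 0.97 (standard error 0.18). For Tmem176b it gave 179 ± 12.7 (SD, n = 3) and 371 ± 28.3 (SD, n = 3), a log2 difference of 1.05 (standard error 0.11). The 3 countings share the same reads and are not independent measurements.

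Leaving out single lines moved Tmem176a more than Tmem176b. The log2 difference of Tmem176a was 0.82 without control line 2, its lowest library, and 1.13 without control line 5-9. The difference of Tmem176b stayed between 0.91 and 1.03 when each line was left out in turn. Averaging the subclones 19-1 and 19-4 into 1 sample gave 1.01 for Tmem176a and 0.97 for Tmem176b.

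**Figure D2:**
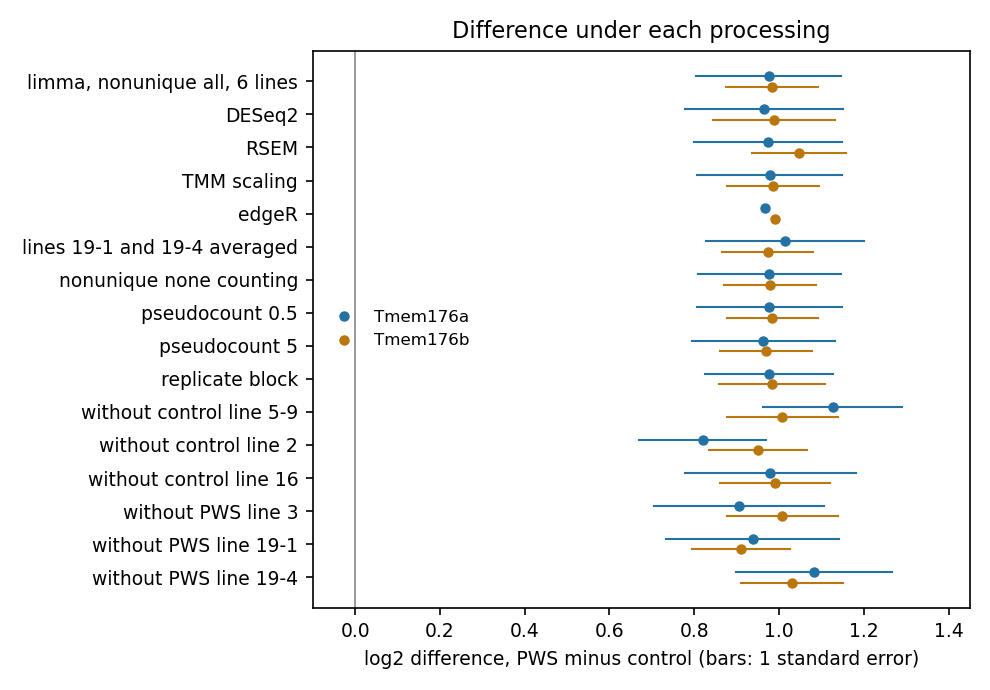
Log2 difference (PWS minus control, horizontal axis) of Tmem176a (blue) and Tmem176b (brown) under each processing and with each line left out, with bars of 1 standard error where the method gives one. All values for Tmem176a lie between 0.82 and 1.13 and all those for Tmem176b between 0.91 and 1.05.

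The genes around the pair were examined to see whether they differed with it. In the gene order of GRCr8, the 10 nearest protein-coding genes on each side were taken, and 17 of these 20 matched the count table by name. The genes next to the pair were nearly silent. Gimap5, the nearest on the Tmem176b side and a member of a family of lymphocyte GTPases, had 2 reads in all 6 libraries together, and Aoc1, the diamine oxidase gene nearest on the Tmem176a side, had none. In total 11 of the 17 had at most 3 reads in every line, among them 6 Gimap genes. Of the matched genes between Zfp775 and Malsu1, Tmem176a and Tmem176b were thus the only ones with more than 3 reads in any line.

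Beyond this silent stretch, 5 neighbours were tested. At an adjusted p-value of 0.05, limma called 0 of them and 0.257% of all tested genes. edgeR, which called 0.205% of the genes, and DESeq2, which called 1.46%, called 0 of the 5 as well. At an unadjusted limma p-value under 0.05, reached by 11.3% of all genes, 1 was lower. Repin1, a zinc finger protein, had 625 ± 5.997 (SD, n = 3) normalized counts in control and 693 ± 20.5 (SD, n = 3) in PWS lines, and its groups did not overlap, as was so for 17.4% of all tested genes in either direction. Its log2 difference was 0.15 (standard error 0.07, adjusted p = 0.498 in limma). Zfp775, another zinc finger protein, had 367 ± 61.1 (SD, n = 3) and 424 ± 13.3 (SD, n = 3), a log2 difference of 0.22 (limma adjusted p = 0.561), which was 0.11 without control line 2 and 0.34 without line 16. Malsu1, a mitochondrial ribosome assembly factor, differed by -0.019 and Tra2a, a splicing factor, by -0.04, and for both the sign changed with the line left out. Gemin7l1 had 54.7 ± 3.82 (SD, n = 3) and 39.5 ± 1.51 (SD, n = 3), a log2 difference of -0.46 (limma adjusted p = 0.406). Its groups did not overlap either. It was the gene with an unadjusted p-value under 0.05, and nonunique none counting kept 1.05% of its reads. The log2 differences of the 5 tested neighbours lay between -0.46 and 0.22. The pair was picked for its difference, so its size is not set against theirs.

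**Figure D3:**
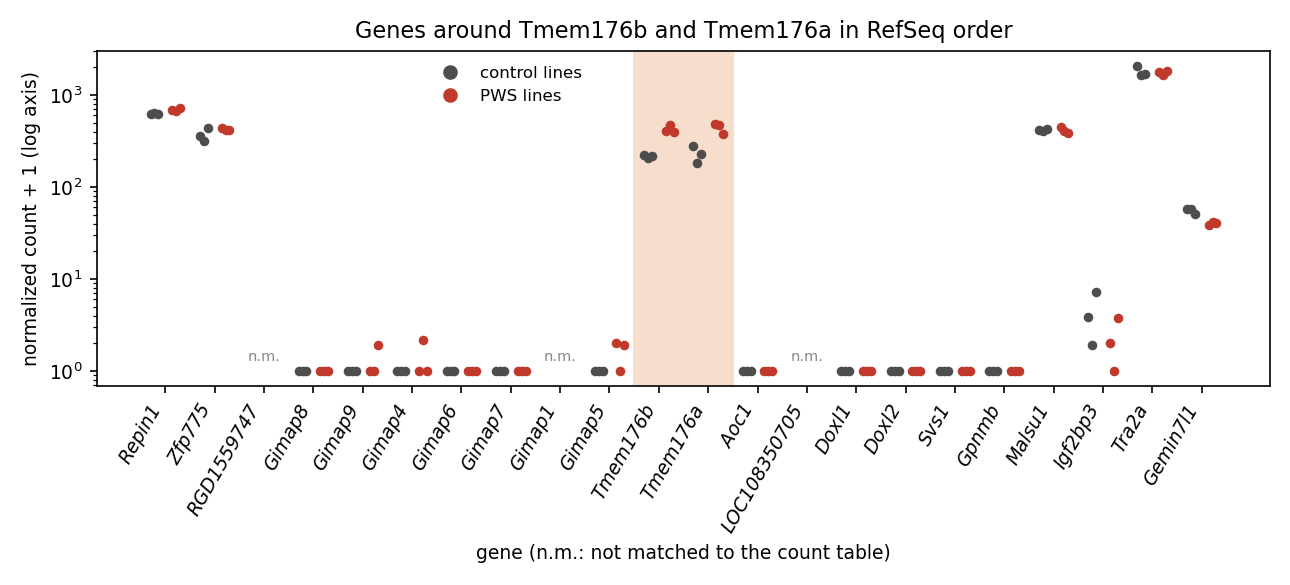
Normalized counts plus 1 (log axis) in the control lines (grey) and PWS lines (red) for the 10 protein-coding genes on each side of Tmem176b and Tmem176a (shaded), in RefSeq order. The pair, which was picked for its difference between the groups, lies within a run of genes at or near 0 reads, and expressed genes stand at both ends.

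Head-to-head genes elsewhere in the genome were used to see how alike such partners differed between these groups. GRCr8 holds 687 pairs of matched protein-coding genes on opposite strands whose starts are at most 1000 bases apart, and both genes were tested in 537 of them, including Tmem176b with Tmem176a. The starts of the other 536 pairs were a median of 236 bases apart. Across those pairs the log2 differences of the partners had a Pearson correlation of 0.268 and a Spearman correlation of 0.277, and 328 pairs (61.2%) had partners of the same sign. These correlations are across genes of the same 6 libraries, and genes are not independent replicates. Over the 435 pairs in which both genes kept at least 90% of their reads under nonunique none counting they were 0.255 and 0.274. Partners also share a place in the genome. In genome order, most partners in the run of pairs from Orc3 with Rars2 to Pusl1 with Acap3 were lower in PWS lines. Neighbouring genes in other arrangements were not compared, so the part of shared place in these values was not tested.

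In none of the other 536 pairs did both partners differ by more than 0.9 in the same direction, and in 4 pairs at least 1 partner did so in either direction. In 2 pairs both partners differed by more than 0.5 in the same direction. Tap1, a peptide transporter for antigen presentation, and Psmb9, an immunoproteasome subunit, had log2 differences of -0.91 and -0.77, which were -0.71 and -0.48 without control line 2. Rpl35a, a ribosomal protein gene, and Iqcg differed by 0.95 and 0.57, but nonunique none counting kept 4.17% of the reads of Rpl35a. Without PWS line 3 Rpl35a differed by -0.61, and Iqcg differed by 0.35 without control line 2 or without PWS line 19-1. The groups did not overlap for both partners in 1 other pair with the PWS lines higher and in 11 pairs with them lower. Of all single tested genes, 8.43% did not overlap with the PWS lines higher and 17.4% in either direction. A share for pairs of genes in other arrangements was not computed, so nothing about head-to-head genes is read from these counts. The log2 differences of Tmem176a and Tmem176b lay 0.0075 apart, and the median gap between the partners of the other pairs was 0.11. Tmem176a and Tmem176b were picked as neighbours with a shared change, so their size and likeness beside unselected pairs restate the choice and support nothing.

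**Figure D4:**
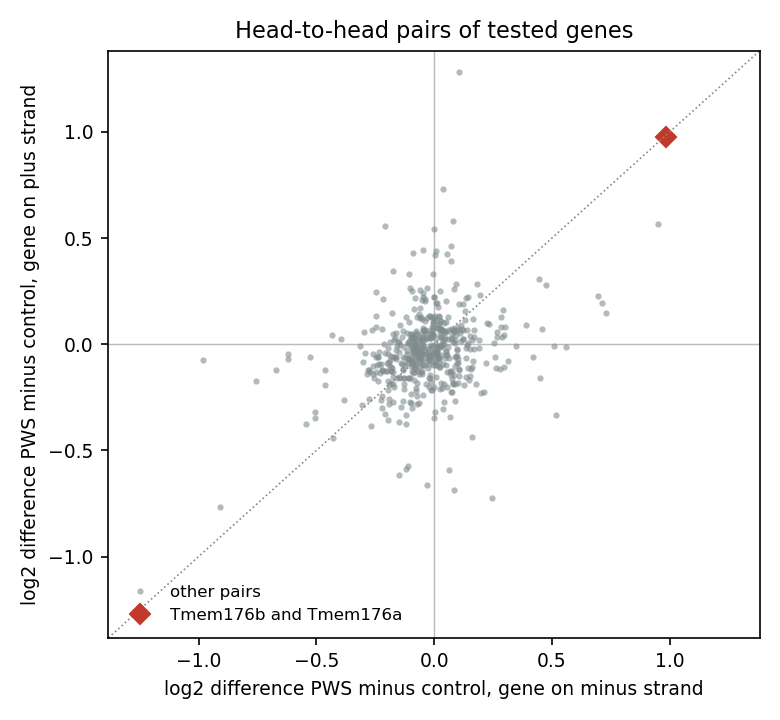
Log2 difference (PWS minus control) of the gene on the minus strand (horizontal) and of its head-to-head partner on the plus strand (vertical) for 536 pairs (grey) and for Tmem176b with Tmem176a (red). Most of the other pairs lie around 0, and the pair, which was picked for a shared change, lies at 0.98 on both axes.

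Genes that belong with the pair by family or function were read from the same fit over all genes. The 57 tested genes reported here come from 6 lists, and limma called 0 and edgeR 0 of them at an adjusted p-value of 0.05, beside the 0.257% and 0.205% of all genes given above. DESeq2 called 0 of the 57. At an unadjusted limma p-value under 0.05, 1 was higher and 4 lower, which is 8.77% of the 57 beside 11.3% of all tested genes. The groups did not overlap for 4 higher and 5 lower genes, 15.8% of the 57 beside 17.4% of all tested genes. Neither share of the lists exceeded that of all genes. The median log2 difference of the 57 genes was 0.03, and that of all 15579 tested genes was -0.00284.

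The relatives of the pair were hardly detected. Among 16 MS4A genes found, 12 had no read in any line and 1 gene, Ms4a8, was tested. Normalized counts of Ms4a8 were 103 in control line 5-9, 13.8 in line 2 and 105 in line 16, and 134, 130 and 101 in PWS lines 3, 19-1 and 19-4. The groups overlapped. Its log2 difference was 1.16 (standard error 0.68, limma adjusted p = 0.561) over all lines and 0.22 without control line 2.

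Channels and exchangers of acidic vesicles were expressed but showed no shared direction. Of 19 tested genes, 10 were higher and 9 lower on average, with a median log2 difference of 0.0066, and 1 higher and 2 lower genes reached an unadjusted p-value under 0.05, 15.8% of the 19 beside 11.3% of all tested genes. The groups did not overlap for 3 higher and 2 lower genes, 26.3% of the 19 beside 17.4% of all tested genes. The extremes were Mcoln3, a TRPML channel of endosomes, at 0.73 (limma adjusted p = 0.65) and Slc9a5, a sodium-proton exchanger, at -1.13 (limma adjusted p = 0.433), and for both of these genes the groups overlapped. Without control line 2 they were 0.06 and -0.68, and that of Mcoln3 was 1.11 without control line 16 and 0.44 without PWS line 19-4. Among the 19 tested subunits of the V-ATPase, the proton pump that acidifies these vesicles, 7 were higher and 12 lower on average, with a median log2 difference of -0.08. Their summed level was 65510 to 66710 normalized counts in the control lines and 62960 to 65410 in the PWS lines. The groups did not overlap for 2 subunits (10.5%), Atp6v0b and Atp6v0d1, both lower. The highest was Atp6v1c2 at 0.38 (limma adjusted p = 0.671), and the lowest was Atp6v0b, the only subunit with an unadjusted p-value under 0.05, at -0.23 (limma adjusted p = 0.414). Atp6v1c2 was at 0.11 without PWS line 19-4 and 0.59 without line 19-1, and Atp6v0b was at -0.14 without control line 2.

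Of the 13 genes of MHC class II presentation, 10 had at most 3 reads in every line, and the invariant chain gene Cd74 was among them at 0 to 3.59 normalized counts. Of the 3 tested genes, Ifi30, a lysosomal thiol reductase, had the highest log2 difference at 0.15 (limma adjusted p = 0.734), which was 0.04 without PWS line 19-4, 0.27 without PWS line 19-1 and 0.23 without control line 2. RT1-DMa, a subunit of the complex that loads peptides onto class II, stood at 26.6 normalized counts in control line 5-9, 42.2 in line 2 and 33.9 in line 16, and at 16.3, 7.18 and 18.2 in PWS lines 3, 19-1 and 19-4. Its groups did not overlap, with a log2 difference of -1.31 (standard error 0.38, limma adjusted p = 0.293), but nonunique none counting dropped all of its 149 reads. The feature LOC108348072 lost nearly the same number in each line (within 1% of the summed reads), which makes it a candidate for the feature that shares them. In the inflammasome list Casp1, Il1b and P2rx7 had no read, and the 7 tested genes lay between -0.03 for Gsdmd, the pore-forming gasdermin D, and 0.21 for Pycard, the adaptor ASC. The sign of both changed with the line left out, and Pycard was at -0.23 without control line 2 and at 0.43 without line 5-9. None of the 7 reached an unadjusted p-value under 0.05.

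The 8 clock nuclear receptors and partners reported here lay near 0, with a median log2 difference of 0.07, and 0 of them reached an unadjusted limma p-value under 0.05. The highest was Nr1d1, a repressor of the clock also known as Rev-erb alpha, with 132 ± 20.1 (SD, n = 3) normalized counts in control and 158 ± 6.71 (SD, n = 3) in PWS lines. Its groups barely separated, since control line 16 and PWS line 3 lay side by side, and its log2 difference was 0.27 (standard error 0.15, limma adjusted p = 0.543), or 0.15 without control line 2. The lowest was Nfil3, another repressor of the clock, at -0.30 (limma adjusted p = 0.682), which was -0.0031 without control line 2, -0.51 without line 5-9 and -0.18 without PWS line 19-4. Of the reads of Rora, also among the 8, nonunique none counting kept 21.7%.

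**Figure D5:**
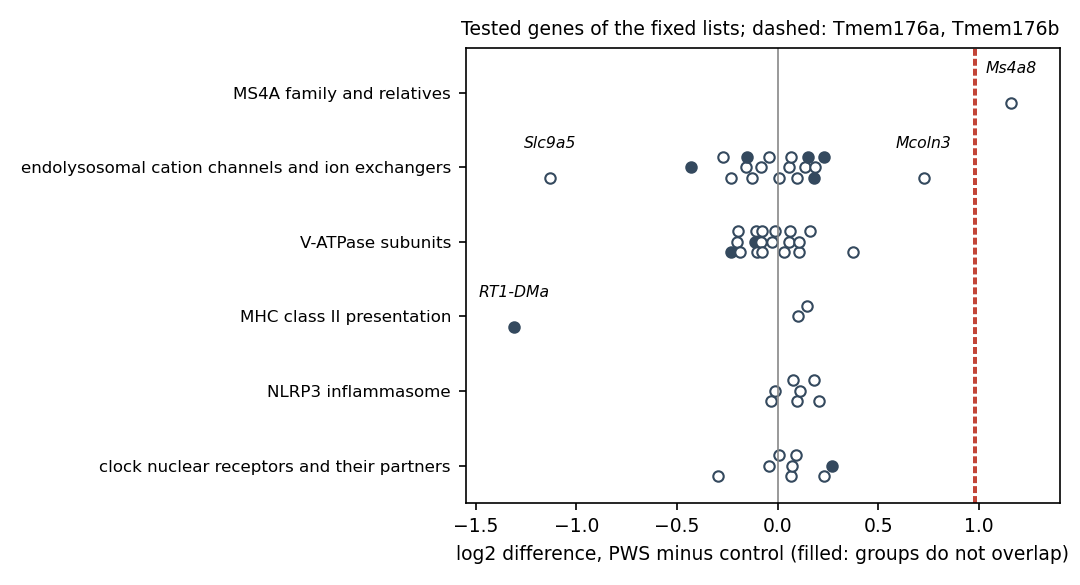
Log2 difference (PWS minus control, horizontal axis) of the 57 tested genes reported from 6 lists (vertical axis), filled where the groups did not overlap. Dashed lines mark Tmem176a and Tmem176b at 0.98. Most list genes lie near 0, and Ms4a8, whose groups overlap, lies beyond the dashed lines at 1.16.

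The genes whose profile over the 6 lines was most like the mean profile of the pair were sought among 11005 tested genes with a symbol and a mean of at least 50 normalized counts. The correlation was at least 0.9 for 156 genes and at most -0.9 for 166. The 10 most like, with correlations from 0.973 to 0.989 over 6 lines, were Plppr2, Reep6, Nap1l5, Zfp532, Cyct, Tmem241, Agpat3, Mgat5, Csdc2 and Fbxw11. Their log2 differences were all positive and smaller than those of the pair, from 0.13 for Fbxw11 to 0.73 for Tmem241. Of the 10, limma called 0, edgeR 0 and DESeq2 3, and 8 had an unadjusted limma p-value under 0.05. Of all tested genes, limma called 0.257%, edgeR 0.205% and DESeq2 1.46%, and 11.3% had such an unadjusted p-value. Since likeness to the pair selects genes that differ between the groups, these counts describe the selection. The 3 that DESeq2 called were Reep6, an endoplasmic reticulum protein (adjusted p = 0.0203), Tmem241 (adjusted p = 0.0427) and Mgat5, a Golgi glycosyltransferase (adjusted p = 0.00023). Control lines had 539 to 698 normalized counts of Mgat5, against 921 to 1093 in PWS lines. For Tmem241 they had 88.1 to 115, against 146 to 179. The most opposite profiles were those of Ccdc163 (correlation -0.995), Gins3, a replication factor, Cox7a2l2, Dusp11, an RNA phosphatase, and Mns1, with log2 differences from -0.48 for Ccdc163 to -0.04 for Dusp11. Cox7a2l2 and Dusp11 kept 58.0% and 0.0173% of their reads under nonunique none counting.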

How the data were processed

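Total RNA-seq of 3 control and 3 PWS INS-1 lines was analysed, with 1 library per line. Per the submitters' processing notes and the study's methods, the authors trimmed reads with cutadapt, aligned them with STAR 2.7.0e to the Ensembl rat genome with transgenes added, and counted them with HTSeq 0.11.2 (nonunique all and nonunique none) or RSEM 1.3.1. The deposited values are a signal, counts divided by DESeq2 size factors. Whether counting used strand is not given in the sources used here. The deposited fold changes, standard errors and p-values of the authors' comparison were not used.

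Reads were recovered from each HTSeq column by dividing by its smallest nonzero value, which gave whole numbers (tolerance 0.001) for 100% of nonzero values. Nonunique all counting was used for all values unless another counting is named. The groups were compared with limma 3.58.1 in R 4.3.3 (lmFit, eBayes with trend) on log2(normalized count + 1) over 15579 genes with a mean of at least 5, with Benjamini-Hochberg adjustment at 0.05. edgeR 4.0.16 (quasi-likelihood) and DESeq2 1.42.0 were run on the recovered reads. The tests were tested on simulated data before use, where DESeq2 made more false calls than limma or edgeR. Because labels do not name separate cultures beyond the line, p-values measure only the spread between these libraries, and the least two-sided p of an exact permutation test of 3 lines against 3 is 0.1.

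The pair, the gene lists and the marker lists were chosen with earlier results of these data known. Genes were named by rule: the pair, every tested gene among 10 neighbours on each side, called, highest and lowest members of each list, the 10 genes most like the pair and the 5 most opposite, and defining cell-type markers. A member of a list is not reported here and was left out of all list counts. Atp6v0d1, head-to-head pairs with both genes beyond 0.5 and the comparison of shared reads, LOC108348072 included, were chosen after the values were seen. Of 23154 protein-coding genes in the RefSeq table of GRCr8, 18400 matched the count table by symbol or synonym, and it was used for gene order, distances between starts and promoter windows only, since the count tables use another annotation. The alternatives were 2 other pseudocounts, 2 other filters, TMM scaling, eBayes without trend, edgeR, DESeq2, nonunique none counting, RSEM, a replicate block, lines 19-1 and 19-4 averaged, each line left out in turn, and for likeness Spearman correlation and deviations from group means.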

Additional observations from a re-analysis of the deposited data

How the results depend on the processing

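The log2 differences of Tmem176a and Tmem176b were positive under all 15 alternatives run for them, from 0.82 to 1.13 and from 0.91 to 1.05. The count of genes called over the whole table was 40 in limma, and it was 228 in DESeq2, 12 with RSEM, 9 with a mean of at least 50 and 16 under nonunique none counting, and 33 to 55 when each line was left out in turn. The cause was not tested. List genes and neighbours called numbered 0 under the 18 alternatives, among those each one tested. Of the 5 neighbours 4 were tested with RSEM, nonunique none counting or a mean of at least 50, where Gemin7l1 was not, and of the 57 list genes 56 were tested under nonunique none counting and 49 with a mean of at least 50. Of the 10 genes most like the pair, 8 stayed among the 10 under nonunique none counting, 3 were among the 30 tied first under Spearman correlation, and 0 were among the first 10 when group means were removed, so the likeness rests on the step between the groups.

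Replicate numbers did not pair the lines: correlations of the deviations of same-numbered lines were 0.00345, 0.0467 and 0.00513. With the replicate number as a block, 36 genes were called. In this balanced layout the block cannot change a log2 difference (0.98 for Tmem176a and Tmem176b), and its standard errors were 0.15 and 0.12, beside 0.17 and 0.11 without the block. The reads behind each value of the pair, 197 to 478, limit its precision, as do 3 lines per group, of which the PWS lines stand for 2 clones. RSEM values give no read counts.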
